A study of Danio rerio with 6 samples.

Results

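Of the 31388 genes counted in whole zebrafish larvae, 59 had a strongly lower level in *fdx1b*-/- mutants than in their siblings and are described here one by one. The level was taken as CPM, the exonic read count of a gene divided by the total of its library and multiplied by 1000000. A gene was taken when its mean over the 6 libraries was at least 2 CPM, when the 3 mutant values were all below the 3 sibling values, and when the log2 ratio of the mean mutant to the mean sibling level, with 0.5 CPM added to each, was -0.7 or lower. Of the 19410 genes at or above the minimum, 67 met these conditions (0.345%), and 8 of them (*fkbp5*, *slc14a2*, *rhcgl1*, *hpx*, *agxtb*, *chac1*, *hsd20b2* and *pck1*) were left out by name. All 59 were thus chosen by their own difference between the genotypes, so that their ratios are given as a description and without a test.

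The samples were 3 pools of *fdx1b*-/- mutants and 3 pools of siblings, each of 20 larvae of 5 days post fertilisation collected 3 h after lights on. Mutants lack a functional ferredoxin 1b, the electron donor of the mitochondrial steroid-making cytochromes of the interrenal gland, and are deficient in cortisol. The mutation is carried by all cells, and the labels name no hormone treatment. The headers of all 6 libraries carry CTR, which the paper uses for the vehicle control of its dexamethasone experiments. Whether vehicle was added to these larvae is not stated in the sources used here. Mutants were picked by their failure to adjust skin pigmentation to the background, and the siblings, of the AB strain background like the mutants, were kept as controls. The labels call the controls siblings and the study describes them as wild type. The level of *fdx1b* itself was not analysed here.

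The libraries held between 18247332 and 49908095 exonic counts, the smallest being sibling replicate 2. That library also stood apart in its content, with 45 genes at least 5-fold above the mean of the other sibling pools, which made up 2.15% of its counts, whereas no gene was so in sibling replicates 1 and 3 and 5 were in mutant replicate 1. No such gene was among the 59. The markers of 9 tissues were compared as a check of the makeup of the pools, and none of the 31 markers found passed the test of edgeR in either direction, with 8 lower and 10 higher at an unadjusted p under 0.05, and 2 lower and 4 higher by DESeq2. Of all tested genes, 10.4% were lower and 9.21% higher at an unadjusted p under 0.05 in edgeR, and DESeq2 called 2.18% lower and 2.15% higher. The summed CPM of 5 fast muscle markers lay between 11266 and 12999 in siblings and between 14078 and 15020 in mutants, that of 6 liver markers between 8506 and 9676 and between 10227 and 10552, and that of 3 retina markers between 667 and 743 and between 607 and 633. The muscle and liver sums were thus higher and the retina sum lower in mutants without overlap. Single markers did not all follow their sums. Most of the liver sum came from *apobb.1*, with means of 6204 CPM in siblings and 6650 CPM in mutants, while liver *fabp10a* had a log2 fold change of -0.12. The genotypes overlapped in *fabp10a* and *cp* of the liver, *ckma* of muscle, and *rho* and *gnat1* of the retina. In whole larvae, fewer cells of a type and less RNA per cell cannot be told apart.

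Cortisol, the main glucocorticoid of fish and of humans, binds the glucocorticoid receptor, which enters the nucleus and switches target genes on or off at glucocorticoid response elements or through other transcription factors. In the liver and muscle of vertebrates the hormone is known for raising glucose output, for breaking down muscle protein and for shifting fuel use from glucose to fat. In fish it also acts on the ion and ammonium transport of skin and kidney, the tasks that mineralocorticoids share in mammals.

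The members spanned a wide range of levels and a narrow range of ratios. Their mean levels ran from 2.06 to 374 CPM with a median of 10.7 CPM, against a median of 16.7 CPM for all genes at or above the minimum. Their log2 ratios ran from -2.32 to -0.70 with a median of -0.87, which corresponds to mutant levels of 18.3% to 61.4% of the sibling level with a median of 52.4%. Of the 59, 19 lay between 2 and 5 CPM (32.2%, against 16.0% of all genes), 21 between 5 and 20 CPM, 15 between 20 and 100 CPM and 4 above 100 CPM, so that low levels were more frequent than in the background. In 13 members the lowest sibling value was more than 2 times every mutant value. Complete separation of the genotypes in this direction was itself common, being seen in 2838 of 19410 genes (14.6%), and the low ratio was the narrower condition.

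**Figure D1:**
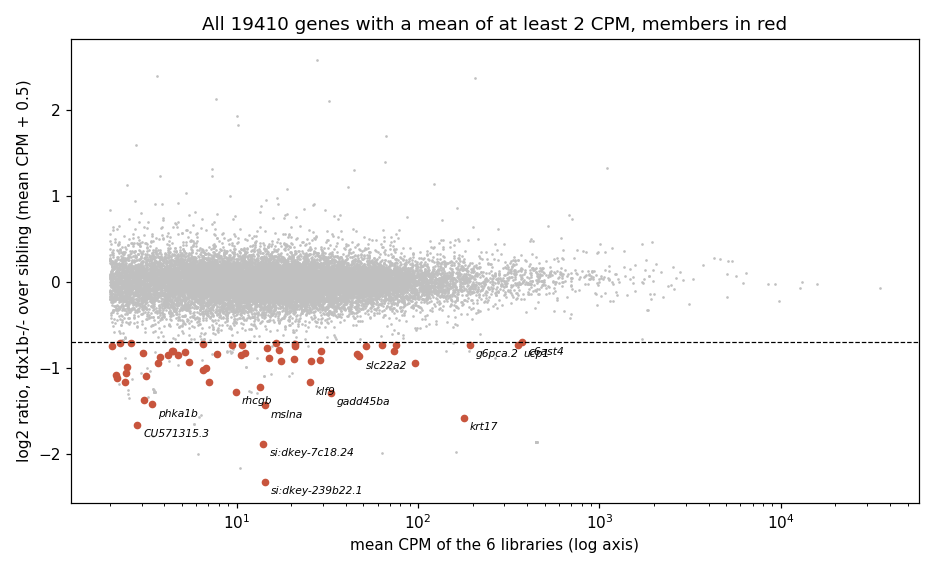
Mean level of each of 19410 genes over the 6 libraries in CPM (x axis, log scale) against its log2 ratio of mutants over siblings (y axis, 0.5 CPM added); each point is a gene, red points are the 59 members and the dashed line is the limit of -0.7. Grey points under the line are genes whose genotypes overlapped (67) or that were left out by name (8), and the members reach from 2.06 to 374 CPM.

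The edgeR quasi-likelihood test with Benjamini-Hochberg adjustment called 132 of 26544 tested genes lower (0.497%) and 164 higher (0.618%), where a call needed an adjusted p no higher than 0.01 and a log2 fold change of 0.25 or more in size. All 59 members were tested and 44 of them were called lower, a count that rests on the same contrast as the choice of the members and is read no further. The 15 that were not called were the clone-named *CU571315.3*, *BX004857.1*, *si:dkey-125e8.3*, *si:ch211-188p14.4*, *FP236157.2*, *si:ch211-207n23.2* and *si:dkey-201c13.2*, and *mucms1*, *mhc1uka*, *SH3GL2 (1 of many)*, *syngap1a*, *hmgcra*, *prss60.3*, *slc2a11a* and *eevs*. DESeq2 called 57, all but *syngap1a* and *hmgcra*.

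The spread within a genotype had a larger median in the members than in all genes at or above the minimum, with no matching for level. Members were more often scarce, 32.2% lying between 2 and 5 CPM against 16.0% of all genes, and counting error is a larger share of low values. The part of level in the difference of spread was not tested. The coefficient of variation among the sibling pools had a median of 10.9% in members and 7.35% in all genes at or above the minimum, and among the mutant pools of 11.7% and 4.98%. The highest sibling value was that of replicate 1, 2 or 3 in 19, 20 and 20 members. The lowest mutant value was that of replicate 1 in 30 of the 59 members, compared with 42.7% of all genes. The highest was that of replicate 3 in 34 of the 59, compared with 37.8% of all genes. Summed over the 59 genes, the siblings had 2669, 2605 and 2737 CPM and the mutants 1349, 1431 and 1539 CPM, so that mutant replicate 1 was the lowest and mutant replicate 3 the nearest to the siblings.

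**Figure D2:**
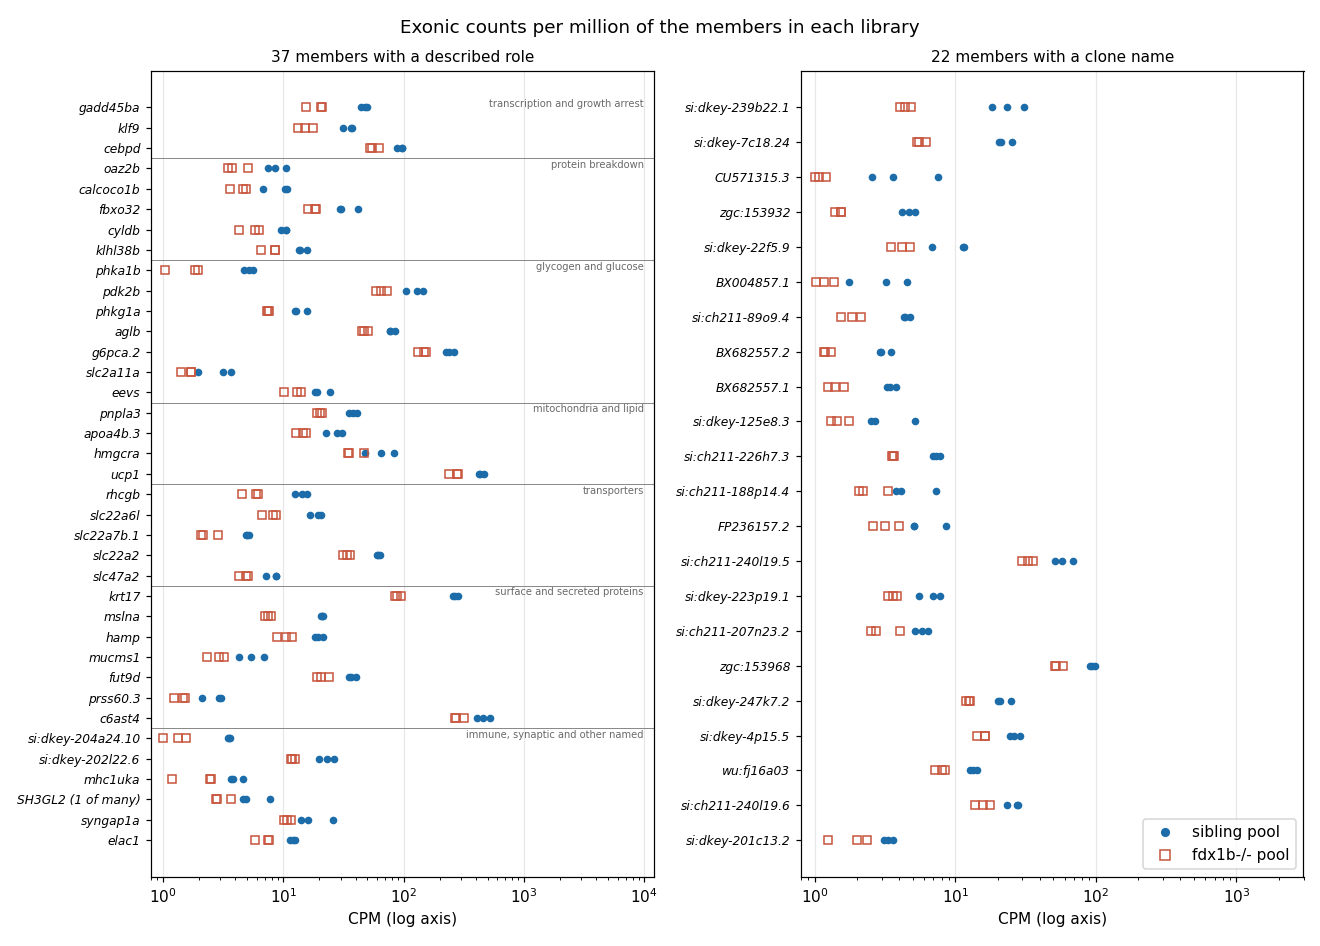
CPM of the 59 members (y axis) in each library on a log axis (x axis), with filled circles for the 3 sibling pools and open squares for the 3 *fdx1b*-/- pools; the 37 members with a described role are grouped by role on the left and the 22 with a clone name are on the right. The squares lie to the left of the circles in every row, as the rule required. The gap was wide in *krt17* and *si:dkey-239b22.1* and narrow in *hmgcra*, where the highest mutant value was 46.5 and the lowest sibling value 47.8 CPM.

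Transcriptional regulators and a growth arrest gene formed the first group. *gadd45ba*, one of the stress-inducible adaptors that slow the cell cycle and bind stress kinases, had 44.2, 47.5 and 49.9 CPM in the siblings and 15.5, 20.9 and 20.5 CPM in the mutants. The mutant pools were at 40.2% of the sibling level on average, a log2 ratio of -1.29. *klf9*, a zinc-finger repressor that is directly induced by the glucocorticoid receptor in mammals and fish, had 31.5, 37.2 and 36.9 CPM in the siblings and 13.4, 15.2 and 17.6 CPM in the mutants, a log2 ratio of -1.17. *cebpd*, a basic leucine zipper factor of the acute phase and of fat cell differentiation, was the most abundant of the group per length of exon, with a mean of 74.9 CPM per kilobase in siblings. Its siblings lay between 88.0 and 97.6 CPM and its mutants between 52.5 and 62.4 CPM.

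The relatives of these genes that were not members were read from the same fit, in lists written with earlier results of these data known. Of 6 listed Gadd45 symbols 3 were found by name, and both that were not members fell in edgeR (background 0.497%). *gadd45ab* fell from 20.6, 21.3 and 24.0 CPM to 14.6, 15.2 and 16.1 CPM (log2 fold change -0.53, SE 0.078, adjusted p = 0.0040) and *gadd45bb* from 11.5 to 7.31 CPM (log2 fold change -0.66, SE 0.092, adjusted p = 0.0026). Neither call held without sibling replicate 1 or without any 1 of the mutant replicates, with 0 of 2 called in each case. The other C/EBP factors found by name were near 0, with log2 fold changes of -0.05 for *cebpa*, 0.07 for *cebpb* and -0.03 for *cebpg*, none of them called. In a list of known glucocorticoid response genes, 2 of 21 genes that were not members were called lower and 0 higher by edgeR (background 0.497% and 0.618%). Their median log2 fold change was -0.16, against -0.00285 for all tested genes. With an unadjusted p under 0.05 there were 12 lower and 0 higher (10.4% and 9.21% of all tested genes), and DESeq2 called 5 lower and 0 higher (2.18% and 2.15%). The called genes were *dusp1*, a phosphatase that ends MAP kinase signals (log2 fold change -0.39, adjusted p = 0.0052), and *ddit4*, an inhibitor of mTOR signalling (-0.53, adjusted p = 0.0050). Leaving out any mutant replicate left 0 of the 21 called lower, leaving out sibling replicate 1 left 1, and leaving out sibling replicate 2 gave 3.

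Known targets of the same list that were not called included *tsc22d3* (log2 fold change -0.29, adjusted p = 0.031), *per1a* (-0.22) and *sgk1* (-0.22), and the receptor gene *nr3c1* was at 0.09, also not called. *klf9* also belongs to the output of the circadian clock in several tissues. Of 37 listed clock and clock output genes, 29 were found by name. Of these 29, 1 was called lower and 0 higher by edgeR (background 0.497% and 0.618%). At an unadjusted p under 0.05, 10 were lower and 4 higher (10.4% and 9.21% of all tested genes). DESeq2 called 5 lower and 1 higher (2.18% and 2.15%). The called gene was *tefb*, a PAR bZIP output factor, with a log2 fold change of -0.28 (adjusted p = 0.0099 by edgeR). Its call was lost in 8 of 10 alternatives. These were DESeq2 size factors, no low-count filter, the replicate number as a block, and leaving out sibling replicate 1 or 3 or any mutant replicate.

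Genes of protein breakdown were the next group, with 5 members between 46.5% and 54.8% of the sibling level. *oaz2b*, an antizyme that sends ornithine decarboxylase to the proteasome, had 8.58, 7.45 and 10.6 CPM in siblings and 3.50, 3.78 and 5.09 CPM in mutants, a log2 ratio of -1.02. *calcoco1b*, whose mammalian counterpart is a receptor for the autophagy of endoplasmic reticulum, was at 47.3% of the sibling level. The log2 ratio of *fbxo32* was -0.92, and those of *cyldb*, a deubiquitinase, and *klhl38b*, a kelch-like protein, were both -0.83. *fbxo32* encodes atrogin-1, the F-box protein that in mammals marks muscle proteins for the proteasome during glucocorticoid-driven wasting. Its values were 41.9, 30.1 and 29.7 CPM in siblings and 16.2, 18.3 and 18.6 CPM in mutants, with sibling replicate 1 above the other pools and no overlap.

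The other genes of the list of muscle breakdown and autophagy were read from the edgeR fit over all genes. That list was written with earlier results of these data known, so its share of calls is no independent support. Of 20, 6 were called lower and 1 higher (background 0.497% and 0.618%), with a median log2 fold change of -0.10. Those that fell were *mylipb*, in mammals a ubiquitin ligase of lipoprotein receptors (42.8, 40.2 and 45.4 CPM in siblings against 27.0, 27.4 and 27.8 CPM in mutants, log2 fold change -0.65, SE 0.059, adjusted p = 0.00015), *ulk2*, the kinase that starts autophagy (-0.57, SE 0.056, adjusted p = 0.00029), *trim63a* and *trim63b*, the copies of the muscle ligase MuRF1 (-0.59 and -0.42), the ligase *hecw2a* (-0.70) and *desi1a*, a desumoylating peptidase (-0.62). The gene that rose was the ligase gene *znrf2a* (0.62, adjusted p = 0.0063), and without sibling replicate 1 or any mutant replicate 0 of the 20 were called higher. Without sibling replicate 1, mutant replicate 1 or mutant replicate 2 the number called lower was 2, without mutant replicate 3 it was 3, and without sibling replicate 2 it was 7. With the replicate number as a block, 3 were called lower and 0 higher. The calls of *mylipb* and *ulk2* held in all 10 alternatives. The summed fast muscle markers were higher in mutants (14078 to 15020 against 11266 to 12999 CPM), opposite to these genes, and their part in the result was not tested. Of the 7 other polyamine genes found by name, 0 were called in either direction by edgeR or DESeq2, with 2 lower and 2 higher at an unadjusted p under 0.05, and *odc1*, the target of the antizymes, had a log2 fold change of 0.36.

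The group labelled glycogen and glucose held 7 members, among them *eevs*, an enzyme of sunscreen synthesis. *phka1b*, a regulatory alpha subunit of phosphorylase kinase, the enzyme that switches glycogen phosphorylase on, had 5.21, 5.64 and 4.72 CPM in siblings and 1.05, 1.84 and 1.97 CPM in mutants. This was 31.2% of the sibling level and a log2 ratio of -1.42, the sixth lowest of all members. *phkg1a*, a catalytic gamma subunit of the same enzyme, was tightly grouped in mutants at 7.55, 7.41 and 7.34 CPM against 12.5, 12.9 and 15.9 CPM in siblings (-0.85). *aglb*, the glycogen debranching enzyme, had a mean of 79.6 CPM in siblings and 47.6 CPM in mutants (-0.73).

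The remaining members of this group work outside the glycogen store. *pdk2b*, a kinase that switches pyruvate dehydrogenase off and so spares glucose, had 144, 130 and 105 CPM in siblings and 65.3, 58.7 and 73.0 CPM in mutants (-0.94). *g6pca.2*, a catalytic subunit of glucose-6-phosphatase, the last step of glucose release by the liver, had 238, 225 and 263 CPM against 133, 148 and 154 CPM (-0.73). Both genes were high and clearly apart in every pool, and the mutants of *g6pca.2* lay below although the summed liver markers were higher in mutants, by ranges of 10227 to 10552 against 8506 to 9676 CPM, whose part in the result was not tested. *slc2a11a*, a hexose transporter, was scarce, with 1.97 to 3.69 CPM in siblings and 1.40 to 1.72 CPM in mutants (-0.71). *eevs*, an enzyme by which fish make the sunscreen compound gadusol, lay between 18.2 and 24.3 CPM and between 10.1 and 14.0 CPM (-0.71).

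The other subunits and enzymes of glycogen handling, left after the rule took *phka1b*, *phkg1a* and *aglb* from the list, went both ways. Of 18 tested genes that were not members, 1 fell and 1 rose in edgeR (background 0.497% and 0.618%), with a median log2 fold change of 0.07. At an unadjusted p under 0.05, 6 were lower and 6 higher (10.4% and 9.21% of all tested genes). DESeq2 called 2 lower and 2 higher (2.18% and 2.15%). The gene that fell was *pygma*, a muscle glycogen phosphorylase and thus the substrate of phosphorylase kinase (71.8, 62.7 and 67.8 CPM in siblings, 48.9, 55.4 and 52.5 CPM in mutants, log2 fold change -0.37, SE 0.061, adjusted p = 0.0075). This call was lost with the replicate number as a block, without sibling replicate 1 and without each of the mutant replicates. In each of these fits 0 of 18 were called lower. The gene that rose was *pygl*, the liver form of the phosphorylase, with 73.1, 71.1 and 84.4 CPM in siblings and 173, 165 and 169 CPM in mutants (log2 fold change 1.15, SE 0.073, adjusted p = 1.2e-05), and it held in all 10 alternatives. The remaining phosphorylase kinase subunits were at log2 fold changes of 0.03 for *phka1a*, -0.31 for *phka2*, -0.02 for *phkb*, -0.34 for *phkg1b* and 0.11 for *phkg2*, none called. Whether *phka1b* and *phka1a* differ in their response was not tested, since *phka1b* was chosen by its own difference.

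Genes of mitochondria and lipid handling gave 4 members. *pnpla3*, a lipid droplet protein related to triglyceride lipases, had 38.0, 35.3 and 40.7 CPM in siblings and 19.0, 20.1 and 21.1 CPM in mutants, all pools of a genotype close together (-0.90). *ucp1*, the uncoupling protein that in mammals makes heat in brown fat, was the second most abundant member by CPM, with 468, 434 and 423 CPM in siblings and 239, 276 and 284 CPM in mutants (-0.73). *apoa4b.3*, an apolipoprotein of the A-IV type, lay between 22.5 and 30.8 CPM and between 12.8 and 15.6 CPM (-0.90). *hmgcra*, the rate-limiting enzyme of cholesterol synthesis, was barely apart, with 64.5, 47.8 and 83.6 CPM in siblings and 34.9, 34.8 and 46.5 CPM in mutants (-0.75).

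Of 14 other genes of mitochondrial fuel choice, 0 were called in either direction by edgeR or by DESeq2, and 4 were lower and 3 higher at an unadjusted p under 0.05. *pdk4*, in mammals the classical glucocorticoid-induced pyruvate dehydrogenase kinase, had 131, 117 and 125 CPM in siblings and 109, 114 and 116 CPM in mutants, which edgeR gave as -0.14 on the log2 scale (SE 0.059, adjusted p = 0.21). *pdk1* was at 0.09 and *pnpla2*, the main triglyceride lipase, at -0.44 (adjusted p = 0.065). The apolipoprotein copies *apoa4b.1* and *apoa4b.2* were at -0.07 and -0.11, not called.

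**Figure D3:**
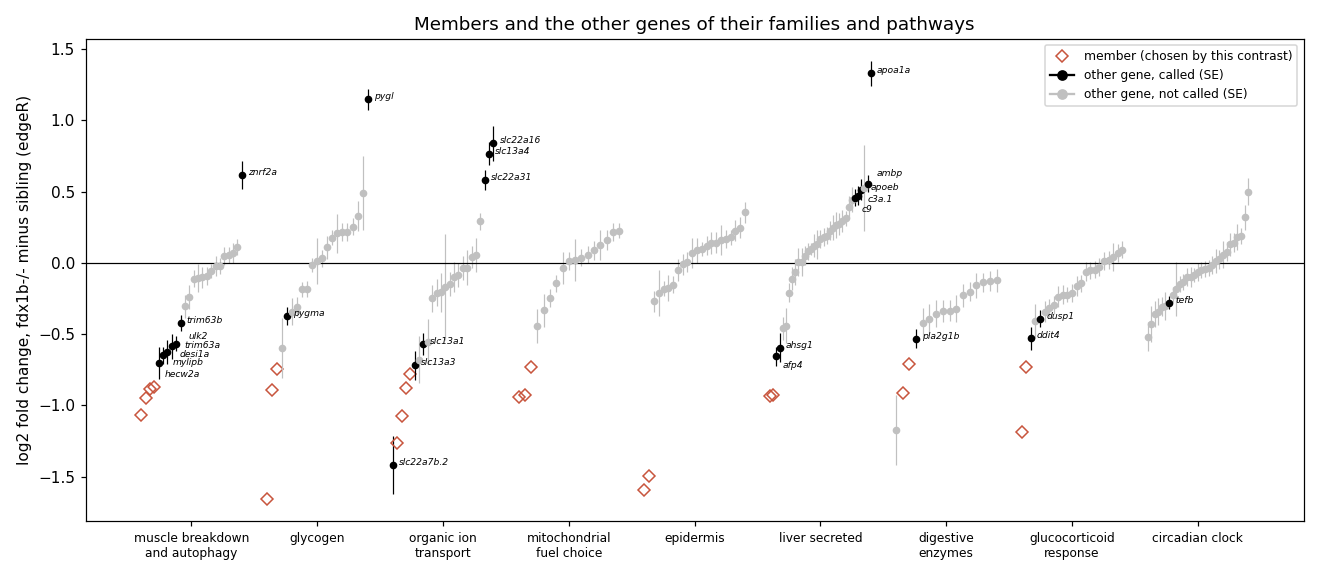
Log2 fold change of mutants minus siblings by edgeR (y axis) for the genes of 9 lists (x axis), ordered by value within each list; open red diamonds are members, which were chosen by this contrast, and points with SE bars are other genes, black where called and grey where not. The muscle breakdown list holds 6 black points below 0 and 1 above, the liver list 2 below and 5 above, and the epidermis list none.

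Transporters gave 5 members. *rhcgb*, a Rh glycoprotein that lets ammonia out of skin and gill ionocytes, had 14.3, 12.6 and 15.9 CPM in siblings and 4.58, 6.23 and 5.92 CPM in mutants, 39.1% of the sibling level and a log2 ratio of -1.28. *slc22a6l*, of the organic anion transporter family, had 16.8, 19.6 and 20.5 CPM and 6.63, 8.17 and 8.76 CPM (-1.22). *slc22a2*, the organic cation transporter of the kidney, was more even, at 59.9, 60.9 and 63.8 CPM and 31.1, 33.6 and 35.9 CPM (-0.87). The scarcer *slc22a7b.1*, another organic anion transporter, was at -0.94 and *slc47a2*, which exports organic cations into the urine in mammals, at -0.72.

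Organic ion transporters that were not members went both ways. Of 20 tested genes for organic ion transport, 3 fell and 3 rose in edgeR (background 0.497% and 0.618%). At an unadjusted p under 0.05, 7 were lower and 4 higher (10.4% and 9.21% of all tested genes). DESeq2 called 4 lower and 4 higher (2.18% and 2.15%). *slc22a7b.2*, a copy of *slc22a7b.1*, fell from 2.75, 3.01 and 2.85 CPM to 0.782, 1.42 and 0.986 CPM (log2 fold change -1.42, SE 0.204, adjusted p = 0.0033), while *slc22a7b.3* was at -0.68 (adjusted p = 0.044) and *slc22a7a* at -0.15, both not called. *slc13a1* and *slc13a3*, carriers of sulphate and of dicarboxylates, fell by 0.57 and 0.72 on the log2 scale. *slc13a4*, another sulphate carrier, rose from 11.7 to 20.0 CPM (log2 fold change 0.76, SE 0.081, adjusted p = 0.00047) and held in all 10 alternatives, and *slc22a16* and *slc22a31* rose by 0.84 and 0.58. The number that fell was 2 without sibling replicate 1, 0 without mutant replicate 1 and 1 without mutant replicate 2 or 3, and the number that rose was 1 without sibling replicate 1 or mutant replicate 3. Of the ammonium transporters, *rhcga* fell in all alternatives (116, 113 and 124 CPM in siblings, 83.1, 78.9 and 80.6 CPM in mutants, log2 fold change -0.54, SE 0.057, adjusted p = 0.00045). The others of the family that were tested and not left out by name were not called, *rhag* with a log2 fold change of 0.18 (adjusted p = 0.18), its mutant values all above its sibling values, and *rhbg* with -0.10 (adjusted p = 0.54). The summed markers of ionocytes and pronephros, of which 3 of 5 were found by name, overlapped. They lay at 311 to 317 CPM in siblings and 313 to 318 CPM in mutants. Single markers went opposite ways without overlap, *cdh17* from a mean of 175 to 194 CPM and *slc4a4a* from 119 to 102 CPM, while *slc12a3* overlapped. The part of these tissues in the result was not tested.

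Surface and secreted proteins gave 7 members, among them the lowest ratios of all members with a described role. *krt17*, a type I keratin of surface epithelia, had 282, 259 and 266 CPM in siblings and 84.4, 88.2 and 95.2 CPM in mutants. Its mutant pools were at 33.2% of the sibling level (-1.59), with a gap of 2.72-fold between the lowest sibling and the highest mutant pool. *mslna*, a mesothelin anchored to the cell surface, had 20.4, 21.6 and 21.2 CPM and 7.44, 6.99 and 7.98 CPM (-1.44), with the sibling pools closely grouped. Of 20 other genes of epidermis and keratin, 0 were called by edgeR in either direction, 3 were lower and 5 higher at an unadjusted p under 0.05, and DESeq2 called 1 lower and 1 higher. Their log2 fold changes ran from -0.27 for *krt5* to 0.35 for *krt92*. The summed epidermis markers overlapped, at 9346 to 10302 CPM in siblings and 9291 to 9973 CPM in mutants. Of these 5 markers, *krt5*, *cyt1* and *krt91* were lower in mutants without overlap. *krt4*, the largest part of the sum, had means of 4882 CPM in siblings and 5224 CPM in mutants and overlapped, as did *cldni*. At an unadjusted p under 0.05, 3 of the 5 markers were lower and 0 higher, the same 3 genes as the lower ones of the list. The part of the markers in the result was not tested.

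The rest of this group were proteases, a hormone, a mucin and a glycosyltransferase. *c6ast4*, an astacin-type protease, was the most abundant member both by CPM and per length of exon, at 333 CPM per kilobase in siblings and 205 in mutants. Its values were 411, 455 and 526 CPM in siblings and 272, 268 and 315 CPM in mutants, a log2 ratio of -0.70 at the edge of the rule. *hamp*, hepcidin, the liver hormone that limits iron uptake, lay between 18.4 and 21.5 CPM and between 8.95 and 11.8 CPM (-0.89). *fut9d*, a fucosyltransferase, was at -0.80, the mucin *mucms1* at -0.85 and the serine protease *prss60.3*, with 2.12 to 3.07 CPM in siblings, at -0.74.

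All 14 digestive enzymes tested that were not members had log2 fold changes below 0, with a median of -0.33 and a range from -1.17 to -0.12. By edgeR 1 of the 14 was called lower (background 0.497%). It was *pla2g1b*, the pancreatic phospholipase (113, 128 and 123 CPM in siblings, 79.7, 82.3 and 89.8 CPM in mutants, log2 fold change -0.53, SE 0.067, adjusted p = 0.0014). At an unadjusted p under 0.05, 10 were lower (10.4% of all tested genes), and DESeq2 called 8 lower (2.18%). Without sibling replicate 2 edgeR called 6, and without mutant replicate 1 or 2 it called 0. *c6ast3*, the nearest listed relative of *c6ast4*, was at -0.39 (adjusted p = 0.053). The summed markers of exocrine pancreas, of which 3 of 6 were found by name, overlapped. They lay at 3150 to 3817 CPM in siblings and 2725 to 3243 CPM in mutants, with the lowest values in mutants. Of these markers, *ela3l* was lower without overlap (731, 720 and 910 CPM in siblings, 567, 538 and 661 CPM in mutants, log2 fold change -0.42), and *ela2* and *prss59.1* overlapped. DESeq2 called 1 of the 3 lower and 0 higher. *prss59.1* is also among the 14 enzymes. The part of the pancreas markers in the result was not tested.

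Secreted liver proteins outside the members were more often higher than lower. Of 31 tested, 2 fell and 5 rose in edgeR (background 0.497% and 0.618%), and the median log2 fold change was 0.18. Only 7 of the 31 had a log2 fold change below 0. At an unadjusted p under 0.05, 5 were lower and 17 higher (10.4% and 9.21% of all tested genes). DESeq2 called 3 lower and 10 higher (2.18% and 2.15%). *afp4*, related to the antifreeze proteins of other fish, fell (99.6, 94.8 and 109 CPM in siblings, 66.2, 59.6 and 67.5 CPM in mutants, log2 fold change -0.65, SE 0.068, adjusted p = 0.00043), as did *ahsg1*, a fetuin (-0.60, adjusted p = 0.0089). *apoa1a*, the main protein of high density lipoprotein, rose from 584, 569 and 722 CPM to 1637, 1530 and 1550 CPM (1.33, SE 0.088, adjusted p = 1.6e-05), as did *ambp*, the precursor of alpha-1-microglobulin (0.56), *apoeb*, apolipoprotein E (0.52), and the complement genes *c3a.1* (0.47) and c9 (0.46). The numbers were 1 fallen and 2 risen without sibling replicate 1 or any of the mutant replicates, 3 and 8 without sibling replicate 2 and 1 and 7 without sibling replicate 3. The calls of *afp4*, *apoa1a* and *ambp* held in all 10 alternatives. The summed liver markers, most of which are in the same list, were higher in mutants without overlap (10227 to 10552 against 8506 to 9676 CPM), and their part in the result was not tested.

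Immune, synaptic and other named genes gave 6 members, all scarce or of modest level. *si:dkey-204a24.10*, named *urgcp* in the reference names and related to large interferon-inducible GTPases, had 3.55, 3.62 and 3.49 CPM in siblings and 1.35, 1.01 and 1.56 CPM in mutants (-1.17). *si:dkey-202l22.6*, named *gvin1l2* and of the same kind of GTPase, was at 19.8, 26.4 and 23.3 CPM and 11.9, 11.6 and 12.6 CPM (-0.92). Both had all sibling pools apart from all mutant pools by at least 1.57-fold. *mhc1uka*, an MHC class I gene, lay between 3.69 and 4.66 CPM and between 1.19 and 2.51 CPM (-0.83), and *elac1*, a tRNA processing enzyme, between 11.5 and 12.5 CPM and between 5.88 and 7.55 CPM (-0.74).

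The size of the ratio leaned on a single library in the pair of synaptic genes of this group. *syngap1a*, a Ras GTPase-activating protein of excitatory synapses, had 16.1, 25.9 and 14.0 CPM in siblings and 11.5, 10.2 and 10.7 CPM in mutants (-0.76), and without sibling replicate 2 its ratio was -0.46. *SH3GL2 (1 of many)*, an endophilin of synaptic vesicle uptake named *sh3gl2b* in the reference names, had 4.87, 7.78 and 4.62 CPM and 3.67, 2.77 and 2.80 CPM (-0.81), and without that library its ratio was -0.55. In both the high value of sibling replicate 2 lay well above the other sibling pools. All mutant values were below all sibling values, as the rule required. By edgeR *syngap1a* was called lower without sibling replicate 2 or 3 and not with all 6 libraries, and *SH3GL2 (1 of many)* was called in none of these fits.

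The remaining 22 members carry only a clone name, and no function was given to them here. They included the lowest ratios of all. *si:dkey-239b22.1* (exons of 16272 bases) had 23.4, 31.0 and 18.4 CPM in siblings and 4.82, 4.42 and 4.08 CPM in mutants, 18.3% of the sibling level (-2.32). *si:dkey-7c18.24* had 25.5, 20.3 and 21.3 CPM and 5.39, 5.54 and 6.17 CPM, 25.5% of the sibling level (-1.88). In both, even the lowest sibling pool was over 3 times the highest mutant pool, at 3.81 and 3.29 times. *CU571315.3* had 2.54, 7.56 and 3.62 CPM and 1.21, 1.01 and 1.08 CPM (-1.67), and its sibling values were the most scattered of all members, with sibling replicate 2 at 2.45 times the mean of the other sibling pools.

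The other 19 clone-named members had sibling means from 3.13 to 94.5 CPM and ratios from -1.38 for *zgc:153932* to -0.71 for *si:dkey-201c13.2*. The most abundant of them by CPM was *zgc:153968*, with 90.4, 93.8 and 99.4 CPM in siblings and 51.8, 51.4 and 58.7 CPM in mutants (-0.80). The closest mutant pools were those of *si:ch211-226h7.3*, a gene with 33340 bases of exon, whose mutant values of 3.64, 3.56 and 3.65 CPM lay below sibling values of 7.79, 6.91 and 7.36 CPM (-0.93). The others were *si:dkey-22f5.9* at -1.17, *BX004857.1* at -1.12, *si:ch211-89o9.4* at -1.10, *BX682557.2* at -1.08, *BX682557.1* at -1.06, *si:dkey-125e8.3* at -0.98, *si:ch211-188p14.4* at -0.87, *FP236157.2* at -0.85, *si:ch211-240l19.5* at -0.84, *si:dkey-223p19.1* at -0.82, *si:ch211-207n23.2* at -0.80, *si:dkey-247k7.2* at -0.79, *si:dkey-4p15.5* at -0.75, *wu:fj16a03* at -0.74 and *si:ch211-240l19.6* at -0.72. These values are log2 ratios on the CPM scale with 0.5 CPM added.

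Some members are neighbours on the chromosomes. By name, 47 of the 59 could be placed among the protein-coding genes of the RefSeq assembly GRCz12tu, which is not the assembly of the counts and was used for the order of genes only. Within 5 genes of each other lay 4 pairs: *phka1b* and *si:dkey-22f5.9* on chromosome 21, *fbxo32* and *klhl38b* on chromosome 16 and *si:ch211-240l19.5* and *si:ch211-240l19.6* on chromosome 4, each with 0 genes between them, and *zgc:153932* and *si:ch211-226h7.3* on chromosome 12 with 4 between them. Whether reads were counted by strand is not stated, so that reads of overlapping genes in such pairs cannot be told apart. Of 58 direct neighbours that were not members, 1 was called lower by edgeR (1.72%, against 0.497% of all tested genes) and 0 higher. At an unadjusted p under 0.05, 12 of the 58 were lower and 8 higher (10.4% and 9.21% of all tested genes). DESeq2 called 5 lower and 4 higher (2.18% and 2.15%). The neighbour called lower was *pygma*, which lies next to *slc22a6l*. Its call was lost with the replicate number as a block, without sibling replicate 1 and without each mutant replicate.

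Single libraries decided the place of many members near the limit. With each library left out in turn, 31 members met the rule in all 6 sets and 28 missed it in at least 1. The highest ratio in these sets was -0.46. That all 59 ratios stayed below 0 was fixed by the rule, which put every mutant value below every sibling value, and shows nothing more. The number of the 59 that still met the rule was 48, 51 and 50 without sibling replicate 1, 2 and 3, and 47, 56 and 55 without mutant replicate 1, 2 and 3. The 8 lost without sibling replicate 2 were *SH3GL2 (1 of many)*, *syngap1a*, *slc47a2*, *prss60.3*, *si:dkey-201c13.2*, *si:ch211-188p14.4*, *CU571315.3* and *FP236157.2*. *CU571315.3* remained far below the limit with a ratio of -1.16 in that set, and it was lost because its mean fell under 2 CPM.

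**Figure D4:**
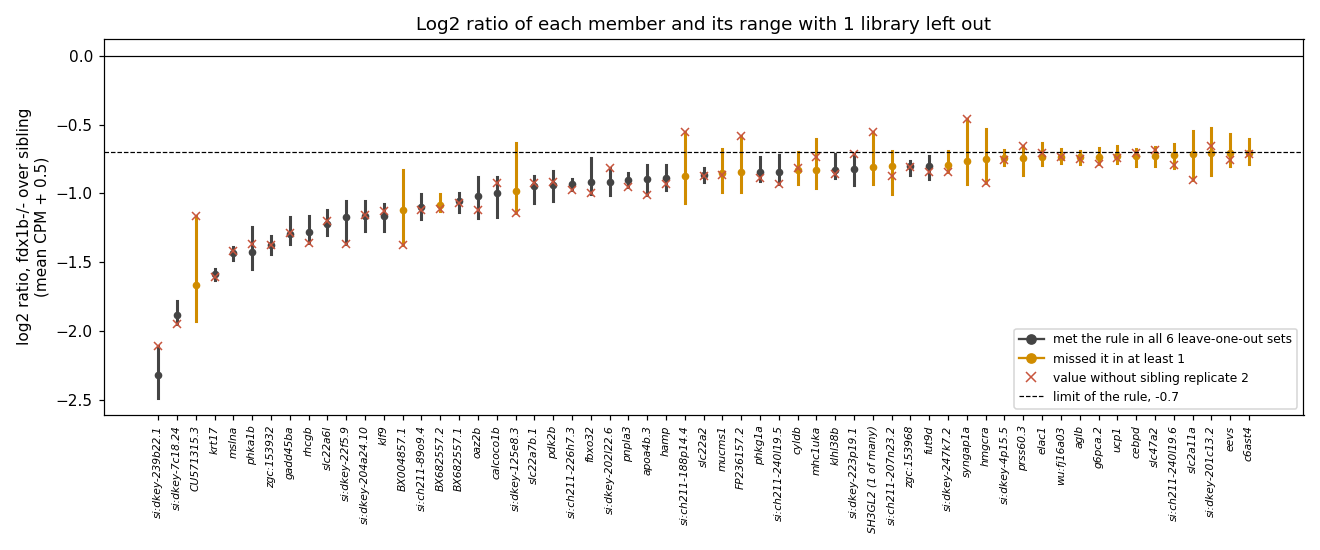
Log2 ratio of mutants over siblings (y axis, 0.5 CPM added) of each of the 59 members (x axis, by ratio), with a point for all 6 libraries, a bar for the range when 1 library was left out and a cross for the value without sibling replicate 2; the dashed line is the limit of -0.7. Grey bars are the 31 members that met the rule in every set and orange bars the 28 that did not, and the highest end is that of *syngap1a* at -0.46.

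The limit of -0.7 cut through a continuous range. Just inside lay *c6ast4*, *eevs* and *si:dkey-201c13.2* with log2 ratios of -0.703, -0.706 and -0.706, and just outside *zgc:136461*, *muc5.2* and *mafb* with -0.697, -0.696 and -0.695. No gene had counts within 5% of those of a member in every library. As only uniquely mapped reads were counted, this does not show whether reads were lost to near-identical copies.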

How the data were processed

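RNA from pools of whole larvae was sequenced on an Illumina HiSeq 2500 after a stranded total RNA library preparation with ribosomal RNA removal, in single reads of 50 bases. The deposited values were raw exonic read counts per Ensembl gene, which the authors made by mapping with STAR onto GRCz10 and counting uniquely mapped reads on exons, without normalization. The processing notes give STAR 2.4.0i, and whether strand was used in counting is not given in the sources used here. Counts of 18247332 to 49908095 per library put 3 counts, taken as the floor of detection, at 0.0601 to 0.164 CPM, which covers counting error only.

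Names came from the gene lists of the study for 3819 genes and from reference names for 22254 more. CPM, ratios and the choice of the 59 genes were computed in Python 3.11.15 with pandas 2.3.3. Genotypes were compared in R 4.3.3 with edgeR 4.0.16 (TMM scaling, filterByExpr, quasi-likelihood test, all 6 libraries, no covariate), with Benjamini-Hochberg adjustment over the 26544 genes kept. Calls had an adjusted p up to 0.01 and a log2 fold change of 0.25 or more in size, and SE values were worked out from the F statistic. The fit was also run on simulated counts with 200 changed genes. That outcome is not reported here, and no call rests on it. Replicates were separate pools of larvae.

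The members, the 12 lists of related genes and the markers were chosen with earlier results of these data known, and no list is independent support. Every member was named with its value, with values per library for the 5 lowest ratios, the 5 highest levels and the first of each role, and of each list every called gene and the relatives of members. Alternatives were DESeq2 1.42.0, its size factors, no low-count filter, the replicate number as a block, each library left out, and other settings of the rule. Sequences of the members were not analysed here.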

Additional observations from a re-analysis of the deposited data

How the results depend on the processing

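The number of genes called lower went from 132 to 445 with the DESeq2 Wald test, and to between 59 and 342 when 1 library was left out, and the number called higher from 164 to 440 and to between 49 and 280. Of the list genes that were not members, 19 were called lower and 10 higher, against 37 and 19 with DESeq2, between 4 and 29 and between 4 and 15 with 1 library left out. The lowest counts followed the loss of sibling replicate 1 or of any mutant replicate, and the highest that of sibling replicate 2 or 3; the cause was not tested. Of the 29 list genes called, 8 kept their call in all 10 alternatives, 21 lost it in at least 1, and none changed direction. The 44 members called lower became between 34 and 57 over all alternatives. The rule gave 59 genes, 37 with 2 CPM added to the means, 96 with a limit of -0.6 and between 61 and 121 with 1 library left out, the highest without mutant replicate 1. With 1 library left out fewer values have to be apart, so that the separation is easier to meet and more genes can pass for that reason. With TMM scaling it gave 60, and all 59 members were among them.

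Replicate numbers gave no sign of pairing, as same-numbered pools deviated with correlations of -0.141, -0.14 and 0.0907. With 3 pools per genotype these values cannot settle whether the pools were paired. With the replicate block, 107 genes were called lower, 95 higher, 49 members lower, 14 list genes lower and 9 higher. The planned search of promoters for receptor elements was not run, for want of sequence. Of the members, 19 lay under 5 CPM, where counting error is a larger share of the value.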

Other observations

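The 8 genes that met the numerical conditions and were left out by name had the separation of genotypes that those conditions require. Their log2 ratios ran from -2.17 for *fkbp5* to -0.71 for *pck1*. A high value in sibling replicate 2 was seen in 6 members, where it was at least 1.3 times the mean of the other sibling pools: *si:dkey-239b22.1* (1.49), *CU571315.3* (2.45), *si:ch211-188p14.4* (1.84), *FP236157.2* (1.67), *SH3GL2 (1 of many)* (1.64) and *syngap1a* (1.72), compared with 5.33% of all genes at or above 2 CPM. At the limit of -0.7, 134 genes had a ratio this low, and in 67 of them the genotypes overlapped. Of the 134, 44 had a value in sibling replicate 2 at least 5-fold above the mean of the other sibling pools. Exons of the members had a median length of 1930 bases, against 2430 bases for all genes at or above the minimum, and ranged from 388 bases for *wu:fj16a03* to 33340 bases for *si:ch211-226h7.3*.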
